A study of Homo sapiens with 32 samples.

Results

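The EGF receptor family and its ligands were followed as 10 genes of the 17788 in the count table. They were the receptor genes EGFR, ERBB2 and ERBB3, the EGFR ligand genes AREG, EREG, HBEGF, TGFA, BTC and EPGN, and NRG1, whose products bind ERBB3 and ERBB4. They were chosen by name, not by a threshold on any measured value, but with earlier results of these data known. Each was matched by its Ensembl identifier to GENCODE release 44, and all 10 passed the filter on low counts.

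The cells were MCF10A, an immortalized, non-tumorigenic human mammary epithelial line. Single-cell derived clones carried either unedited JUNB (WT, clones 27 and 2) or a JUNB gene in which CRISPR/Cas9 had removed an extended stretch (mut, clones 1 and 65), a deletion that still left a smaller JUNB polypeptide. The labels call the mut genotype a JUNB knock-out. Each genotype received solvent or TGFβ1 at 5 ng/ml for 6, 24 or 72 h, which gave 8 groups of 4 libraries, made up of 2 clones with 2 replications each. The solvent libraries carry the label of time 0, whereas in the study's scheme solvent was given over the length of the longest treatment and all cells were harvested together. Every group, controls included, grew in medium with 20 ng/ml human EGF, 5% horse serum, hydrocortisone, cholera toxin and insulin, so that the receptor pathway was supplied with ligand throughout. The 4 libraries of a genotype come from only 2 clones, and differences between genotypes cannot be told apart from differences between these clones.

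The library totals lay between 39702412 and 54651906 counts. Levels are given as CPM, a gene's count scaled to the library total, with the SD over the 4 libraries of a group, and library values are listed in the order 27-1, 2-1, 27-2 and 2-2 for WT and 1-1, 65-1, 1-2 and 65-2 for mut, where the first number is the clone and the second the replication. Libraries of 1 clone and 1 replication form a series. Log2 fold changes are given with their SE from limma-voom, and a gene was called when its Benjamini-Hochberg adjusted p over all 14865 tested genes was under 0.05 in this two-sided test. The series 27-2 had the lowest mean correlation with the other libraries of its group in 4 of 4 WT groups, and the series 1-2 in 3 of 4 mut groups, so that results were also computed without each of them. JUNB itself, the targeted gene, had 97.6 ± 12.9 CPM in WT solvent and 112 ± 47.9 CPM in mut solvent (log2 fold change 0.10 ± 0.34, adjusted p = 0.885), and this count over the whole gene, which overlaps HOOK2 on the opposite strand, does not check the genotype labels. In mut solvent, clone 1 had 69.2 and 77.5 CPM and clone 65 had 128 and 172 CPM, on either side of the WT solvent libraries (89.7 to 117 CPM). At 6 h the mean JUNB level was 166 CPM in clone 1 and 465 CPM in clone 65, beside 202 and 263 CPM in the WT clones 27 and 2. Among cell type markers, the summed CPM of 7 epithelial genes was 6989 to 9363 in WT solvent, 5637 to 8683 in WT at 72 h, 10335 to 12374 in mut solvent and 8815 to 11690 in mut at 72 h, so that the genotypes did not overlap in either state. KRT5 made up most of this sum, with 6261 ± 694 CPM in WT solvent, and the 7 genes did not move together. Of these genes, EPCAM fell from 46.5 ± 9.21 to 15.03 ± 4.28 CPM in WT and from 76.4 ± 4.34 to 39.4 ± 5.15 CPM in mut cells between solvent and 72 h. KRT14 rose from 364 ± 127 to 994 ± 296 CPM in WT and from 480 ± 121 to 1456 ± 524 CPM in mut cells. The mean of KRT17 rose from 1357 to 1776 CPM in WT and fell from 2834 to 2328 CPM in mut cells. The blood marker PTPRC did not exceed 0.0498 CPM, and the fibroblast pair DCN and PDGFRA summed to 4.51 to 13.1 CPM in WT solvent, 5.58 to 16.3 CPM in WT at 72 h, 11.6 to 19.2 CPM in mut solvent and 25.9 to 33.9 CPM in mut at 72 h. DCN made up most of these sums and was higher in mut than in WT cells at 72 h (1.63, adjusted p = 4.53e-05). PDGFRA, at low levels, went the other way at 72 h, with 0.659 to 1.25 CPM in WT and 0.257 to 0.427 CPM in mut libraries. The fibroblast pair thus did not move together, and the part of such marker changes in the results given here was not tested. In these bulk samples, fewer cells of a type and less RNA per cell cannot be told apart.

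EGFR, ERBB2 and ERBB3 encode receptor tyrosine kinases that form dimers when a ligand binds and that pass the signal on through adaptors to the RAS-MAPK and PI3K routes. ERBB2 has no known soluble ligand, and ERBB3 signals mainly as a partner of the other receptors because its kinase is weak. The ligands are made as membrane-anchored precursors and are shed by metalloproteases of the ADAM family. In mammary epithelium, amphiregulin, the product of AREG, is the ligand best known from ductal growth at puberty, and MCF10A cells are routinely kept in medium with EGF.

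In GRCh38, EPGN (ENSG00000182585, chr4:74308470-74316789, plus strand), EREG (ENSG00000124882, chr4:74365145-74388749, plus strand), AREG (ENSG00000109321, chr4:74445136-74455005, plus strand) and BTC (ENSG00000174808, chr4:74744759-74794523, minus strand) lie together on chromosome 4, within 486054 bases. The other ligand genes are HBEGF (ENSG00000113070, chr5:140332843-140346603, minus strand), TGFA (ENSG00000163235, chr2:70447284-70554193, minus strand) and NRG1 (ENSG00000157168), and the receptor genes are EGFR (ENSG00000146648, chr7:55019017-55211628, plus strand), ERBB2 (ENSG00000141736, chr17:39687914-39730426, plus strand) and ERBB3 (ENSG00000065361, chr12:56076799-56103505, plus strand). The JUNB protein is one of the partners that make up AP-1, and so the RefSeq promoter windows (GRCh38.p14, 250 bases before to 50 bases after the start) of the 8 members with an entry were searched on both strands for the AP-1 motif TGANTCA and for the cAMP response element TGACGTCA. These 2 motifs cannot match the same letters. The first occurred in 7.71% and the second in 1.85% of 35116 promoter windows. The windows of EPGN, EREG, BTC, HBEGF and TGFA held neither. The stretches with a match are shown because they are the promoter letters of the family that the motif of the edited factor, or its close relative, matches, and the capitals mark the motif. AREG held a cAMP response element (chr4:74445060-74445089, plus strand), ERBB2 an AP-1 motif (chr17:39687861-39687889, plus strand), and a downstream EGFR start inside the gene held a pair of AP-1 motifs (chr7:55109596-55109624 and chr7:55109692-55109720, plus strand), whereas the upstream EGFR window held none.
AREG: cggccgggcctTGACGTCAtgggctgcggc
ERBB2: gggagcggaagTGATTCAgagcgccccca
EGFR first match: gctttcccatgTGAGTCAttgctagtcag
EGFR second match: gtataaactttTGACTCAcaggacaaatt
A match of letters is a description of the window, and no binding was measured here.

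All 10 genes had counts in each of the 32 libraries, but at very different levels. Per kilobase of exon, AREG was highest in WT solvent with 381 ± 102 CPM per kb, followed by EPGN with 110 ± 21.7. EREG with 16.4 ± 3.95, TGFA with 16.4 ± 1.55, EGFR with 13.8 ± 1.62, HBEGF with 12.8 ± 1.26 and ERBB2 with 12.2 ± 1.45 CPM per kb came next. Neighbours in this middle group lay within each other's SD, except for TGFA and EGFR, and the order changed when the longest transcript was used as the length (ERBB2 25.4, EGFR 22.3 and HBEGF 16.2 CPM per kb). BTC with 2.18 ± 0.317 and ERBB3 with 1.14 ± 0.304 CPM per kb were low, and NRG1 was lowest with 0.176 ± 0.03 CPM per kb. Of the genes of the family outside the 10, EGF itself had 0.202 to 1.21 CPM over all libraries, and ERBB4 and NRG3 did not exceed 0.0421 and 0.0852 CPM, so that neither was tested.

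**Figure D1:**
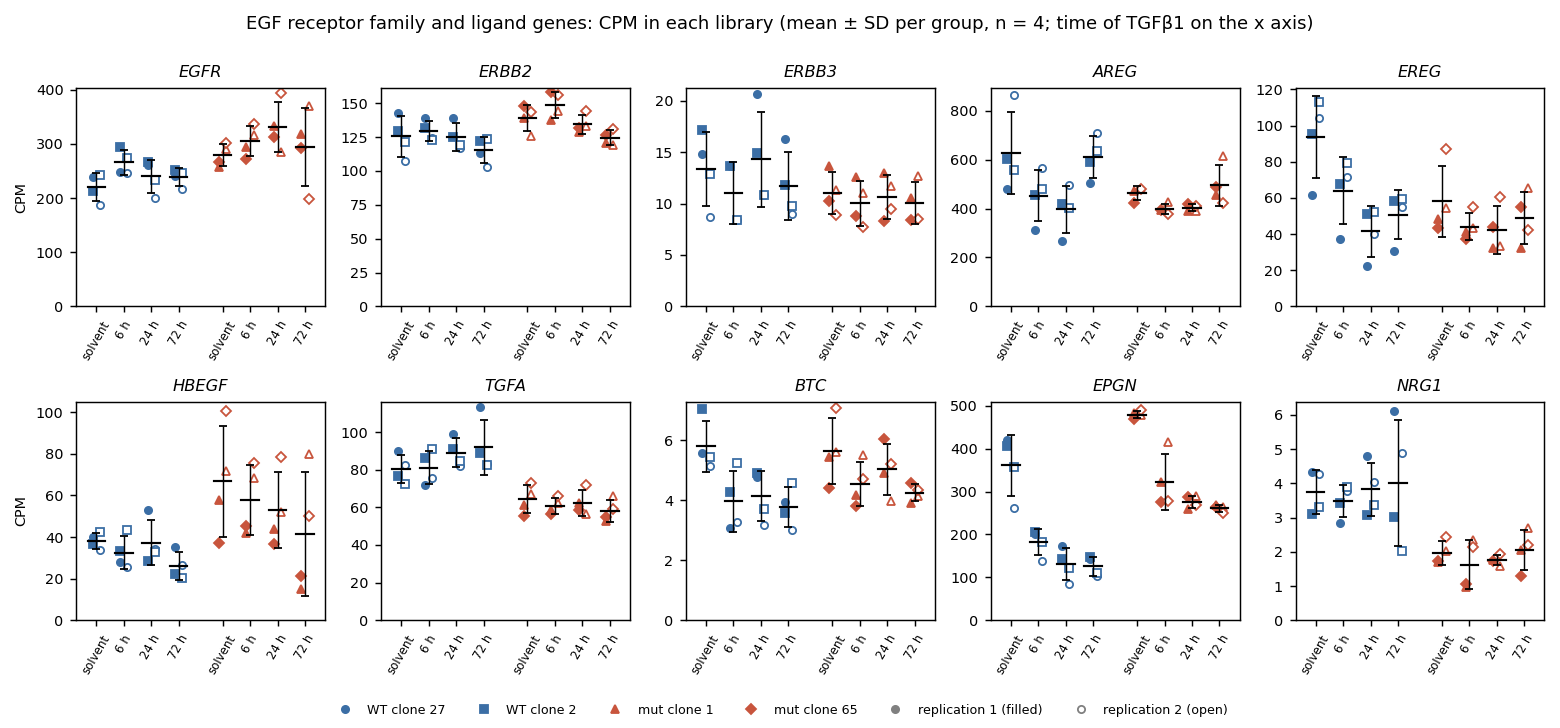
CPM of the 10 genes in each of the 32 libraries, with the time of TGFβ1 on the x axis, WT in blue and mut in red; marker shapes give the clone, filled and open markers the replication, and horizontal bars with whiskers the mean ± SD (n = 4). EPGN falls from 361 to 125.5 CPM in WT and from 479.5 to 261 CPM in mut cells between solvent and 72 h, whereas ERBB2 stays between 103 and 158 CPM in all libraries.

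With TGFβ1, 4 ligand genes were called lower in WT cells at 1 or more times, while HBEGF, TGFA, NRG1 and the 3 receptor genes were not called. EPGN was lower at each of the 3 times, EREG at 24 and 72 h, BTC at each time and AREG at 24 h. In mut cells, EPGN was the single member that passed, at each time. Over the 10 genes, 2, 4 and 3 were called at 6, 24 and 72 h in WT cells, all lower, where 17%, 52.1% and 52.2% of all tested genes were called and 11.9%, 38% and 38.4% were called lower, so that the share of the 10 genes was near that of all genes. In mut cells 1 gene was called lower at each time, beside 7%, 23.8% and 24.1% of all tested genes called and 4.94%, 17.1% and 16.3% called lower. The median log2 fold change of the 10 genes was -0.28, -0.03 and -0.16 in WT and -0.19, -0.16 and -0.15 in mut cells, beside medians of -0.08, -0.18 and -0.19 and of -0.06, -0.10 and -0.09 over all tested genes. The libraries of treated and solvent cells did not overlap for 2, 3 and 3 of the 10 genes in WT and for 1, 2 and 1 in mut cells, beside 18.2%, 45% and 46% and beside 12%, 28% and 23.8% of all tested genes. With TMM factors, which centre the WT medians of all genes at -0.00, 0.00 and -0.03, the WT calls were 7 lower and 2 higher, the latter being TGFA at 24 and 72 h, which edgeR's quasi-likelihood test and DESeq2 also called higher. DESeq2 gave 7 lower and 6 higher calls in WT cells, the higher ones being EGFR, ERBB2 and TGFA, and 3 lower and 1 higher in mut cells.

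EPGN encodes epigen, a ligand of EGFR, and had the largest called TGFβ1 change of the 10 genes in either genotype. In WT cells it had 420, 407, 262 and 356 CPM with solvent, 201, 206, 138 and 183 CPM at 6 h, 173, 143, 83.6 and 123 CPM at 24 h and 142, 147, 103 and 110 CPM at 72 h. Every treated WT library lay below every WT solvent library, and the series 27-2 was the lowest of its group at each time. Against solvent the log2 fold change was -0.98 ± 0.17 after 6 h, -1.49 ± 0.17 after 24 h and -1.52 ± 0.17 after 72 h, the last being 2.87-fold lower (adjusted p = 2.09e-08).

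In mut cells EPGN had 483, 469, 478 and 489 CPM with solvent, 322, 276, 416 and 279 CPM at 6 h, 259, 287, 289 and 269 CPM at 24 h and 268, 264, 263 and 249 CPM at 72 h. Solvent and treated libraries again did not overlap, and at 72 h the mut libraries still lay above every treated WT library. The log2 fold change was -0.59 ± 0.17 at 6 h (adjusted p = 0.0284), -0.80 ± 0.17 at 24 h and -0.88 ± 0.17 at 72 h, which is 1.84-fold lower (adjusted p = 0.000247). The call at 6 h was lost with edgeR's quasi-likelihood test (adjusted p = 0.0533) and when any of several single libraries was left out, for example the mut 65-1 library at 6 h (-0.52, adjusted p = 0.138).

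Mut cells had more EPGN transcript than WT cells. In solvent the libraries of the genotypes did not overlap, but the log2 difference of 0.43 ± 0.17 missed the threshold (adjusted p = 0.0857) and passed it with DESeq2 (adjusted p = 0.0473), with clone sums (0.0389) and with the replication number as a block (0.0476). It was 0.82 ± 0.17 at 6 h (adjusted p = 0.000579), 1.12 ± 0.17 at 24 h (adjusted p = 7.59e-06) and 1.07 ± 0.17 at 72 h (adjusted p = 1.05e-05), a level 2.11-fold higher in mut cells. The test of the difference in response, the interaction of genotype and TGFβ1, gave 0.69 ± 0.24 at 24 h (95% interval 0.23 to 1.15, adjusted p = 0.0597) and 0.64 ± 0.24 at 72 h (95% interval 0.18 to 1.10, adjusted p = 0.0704), so that it missed the threshold. When the series entered as a replicate block, that is, in the paired fit, both interactions were called (adjusted p = 0.000262 at 24 h and 0.000336 at 72 h), and they were also called without the series 27-2 (0.0172 and 0.00571).

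EREG encodes epiregulin, which binds EGFR and ERBB4. WT cells had 61.6, 95.4, 104 and 113 CPM with solvent, 37.2, 67.8, 71.7 and 79.3 CPM at 6 h, 22.3, 51.1, 40.0 and 52.4 CPM at 24 h and 30.5, 58.3, 55.1 and 59.2 CPM at 72 h. The series 27-1 was the lowest of its group each time, and each WT series was lower after TGFβ1 than in its own solvent library. The log2 fold change was -1.23 ± 0.29 at 24 h, 2.35-fold lower (adjusted p = 0.000638), and -0.89 ± 0.28 at 72 h (adjusted p = 0.00904). At 6 h it was -0.56 ± 0.27 (adjusted p = 0.174), a value that was called in the paired fit with the replicate block (adjusted p = 0.00497). Without the WT 72 h library 27-1, the change at 72 h was -0.66 (adjusted p = 0.0547).

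In mut cells EREG had 48.2, 43.4, 54.3 and 86.9 CPM in solvent and 32.5, 55.1, 65.5 and 42.4 CPM at 72 h. These groups overlapped, and the log2 fold changes of -0.36 ± 0.29, -0.46 ± 0.29 and -0.25 ± 0.29 at the 3 times were not called (adjusted p = 0.269 at 24 h, 0.0228 with the replicate block). Mut solvent cells had 58.2 ± 19.6 CPM and WT solvent cells 93.6 ± 22.6 CPM, a difference of -0.70 ± 0.28 that was not called (adjusted p = 0.0981), but that was called with the replication number as a block (adjusted p = 0.0375), without the WT solvent library 27-1 (-0.89, adjusted p = 0.0442) or without the mut solvent library 65-2 (-0.91, adjusted p = 0.0492). At 24 and 72 h the difference was 0.08 ± 0.30 and -0.06 ± 0.29, with 41.4 ± 13.9 CPM in WT and 42.3 ± 13.2 CPM in mut cells at 24 h. The interaction was 0.77 ± 0.41 at 24 h (adjusted p = 0.259) and 0.64 ± 0.40 at 72 h (adjusted p = 0.322), and both were called in the paired fit (adjusted p = 0.0155 and 0.0303).

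AREG encodes amphiregulin and was the ligand with the highest level. Its WT libraries had 479, 604, 864 and 556 CPM with solvent, 314, 456, 565 and 478 CPM at 6 h, 269, 417, 496 and 403 CPM at 24 h and 506, 590, 709 and 636 CPM at 72 h. Each series was lower at 24 h than in its own solvent library, although the groups overlapped, since the 24 h library 27-2 lay above the solvent library 27-1. The libraries at 72 h overlapped those of solvent. The log2 fold change was -0.46 ± 0.17 at 6 h (adjusted p = 0.0533), -0.66 ± 0.17 at 24 h (adjusted p = 0.00141, 1.58-fold lower) and -0.01 ± 0.17 at 72 h (adjusted p = 0.958). The 6 h value was called with the replicate block (adjusted p = 9.76e-05).

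The return of AREG between 24 and 72 h was compared directly, a comparison added after its values had been seen. All 4 WT series were higher at 72 than at 24 h, with a log2 fold change of 0.65 ± 0.17 (adjusted p = 0.0154), while 7.83% of all tested genes were called between these times. The call was lost without the WT 24 h library 27-1 (0.47, adjusted p = 0.0993), without the WT 72 h library 27-2 (0.57, adjusted p = 0.0666) and when only the groups compared were fitted (adjusted p = 0.0696). No other member was called between these times in WT cells, and none in mut cells, where 1.31% of all tested genes were called, no member had an unadjusted p under 0.05, and AREG (0.28 ± 0.17, adjusted p = 0.402) passed in the fit with the replicate block (adjusted p = 0.0238).

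AREG in mut cells had 474, 423, 481 and 480 CPM with solvent, 390, 418, 392 and 411 CPM at 24 h and 456, 487, 613 and 422 CPM at 72 h. Solvent and 24 h libraries did not overlap, yet the log2 fold change at 24 h was only -0.20 ± 0.17 (adjusted p = 0.399, 0.0466 with the replicate block). The interaction at 24 h was 0.45 ± 0.23 (adjusted p = 0.241, 0.00535 with the replicate block). Mut minus WT was -0.40 ± 0.17 in solvent (adjusted p = 0.118) and 0.06 ± 0.17 at 24 h (adjusted p = 0.818), and the solvent difference was called with clone sums (-0.41, adjusted p = 0.0107). At 72 h it was -0.31 ± 0.17 (adjusted p = 0.147), and it was called with DESeq2 (-0.40, adjusted p = 0.0473) and with clone sums (-0.31, adjusted p = 0.0154).

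BTC encodes betacellulin, a ligand of EGFR and ERBB4, and was expressed at a few CPM. In WT solvent it had 5.56, 7.03, 5.14 and 5.44 CPM, and at 72 h 3.93, 3.57, 2.99 and 4.57 CPM, so that the groups did not overlap. The log2 fold change was -0.56 ± 0.18 at 6 h (adjusted p = 0.0294), -0.50 ± 0.18 at 24 h (adjusted p = 0.0201) and -0.64 ± 0.18 at 72 h (adjusted p = 0.00438). The calls at 6 and 24 h were lost with TMM factors (-0.49, adjusted p = 0.062, and -0.32, adjusted p = 0.135) and without the series 27-2 (-0.53, adjusted p = 0.0696, and -0.42, adjusted p = 0.0672). In mut cells the values were -0.32 ± 0.17, -0.17 ± 0.17 and -0.40 ± 0.17, none of them called, and the last was called with the replicate block (adjusted p = 0.0456). No genotype difference of BTC was called at any state.

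TGFA encodes transforming growth factor alpha, an EGFR ligand that is unrelated to TGFβ1 despite its name. It differed by genotype. WT cells had 90.0, 76.7, 82.7 and 72.5 CPM in solvent and 113, 89.0, 82.9 and 82.3 CPM at 72 h. Mut cells had 61.3, 55.6, 67.2 and 73.0 CPM in solvent and 52.7, 54.7, 65.9 and 59.2 CPM at 72 h. The genotypes overlapped in solvent only slightly, where the mut library 65-2 lay just above the lowest WT library, and did not overlap at 6, 24 or 72 h.

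Mut minus WT for TGFA was -0.33 ± 0.10 in solvent (adjusted p = 0.0359). With TGFβ1 it was -0.41 ± 0.10 after 6 h (adjusted p = 0.00512), -0.52 ± 0.10 after 24 h (adjusted p = 0.000293) and -0.65 ± 0.10 after 72 h (adjusted p = 1.44e-05), where TGFA was 1.57-fold lower in mut cells. The solvent call was lost with clone as a random replicate block (adjusted p = 0.0663) and without the series 27-2 (-0.31, adjusted p = 0.0788). TGFβ1 gave 0.15 ± 0.10 at 24 h and 0.18 ± 0.10 at 72 h in WT cells, neither called with library-size scaling, and 0.33 (adjusted p = 0.00879) and 0.34 (adjusted p = 0.00637) with TMM factors, both called. In mut cells the values were -0.07 to -0.04 at 6 and 24 h and -0.14 ± 0.11 at 72 h, none called. The interaction at 72 h was -0.32 ± 0.15 (adjusted p = 0.151), and DESeq2 called it (-0.43, adjusted p = 0.0414).

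HBEGF encodes heparin-binding EGF-like growth factor, and its values in mut cells were scattered. In WT cells the libraries ranged from 33.7 to 42.2 CPM in solvent and from 20.1 to 35.2 CPM at 72 h. In mut cells there were 57.8, 37.2, 71.7 and 101 CPM in solvent and 14.9, 21.3, 79.9 and 49.9 CPM at 72 h. Both libraries of the second replication were above both of the first at all 4 states in mut cells. The change at 72 h was -0.58 ± 0.39 in WT (adjusted p = 0.217) and -0.90 ± 0.35 in mut cells (adjusted p = 0.0621), and both were called in the paired fit with the replicate block (adjusted p = 0.0446 and 0.0042). The mut value also passed without the series 1-2 (-1.28, adjusted p = 0.0197). Mut minus WT was 0.72 ± 0.35 in solvent and 0.81 ± 0.36 at 6 h, not called (adjusted p = 0.186 and 0.11) but called with clone sums (adjusted p = 0.0285 and 0.0187). Clone sums also called the difference at 72 h (0.71, adjusted p = 0.0292), which the main test did not call. The 6 h difference was called as well when only the groups compared were fitted (adjusted p = 0.0289).

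NRG1 encodes neuregulin 1, a ligand of ERBB3 and ERBB4, and was lower in mut cells at every state. WT cells had 4.34, 3.11, 4.26 and 3.30 CPM in solvent and mut cells 1.69, 1.73, 2.02 and 2.43 CPM, without overlap. At 24 h there were 4.81, 3.08, 4.05 and 3.37 CPM in WT and 1.75, 1.74, 1.58 and 1.94 CPM in mut cells. Without TGFβ1 the log2 difference was -0.93 ± 0.29 (adjusted p = 0.0309). With it the difference was -1.21 ± 0.31 after 6 h (adjusted p = 0.00544), -1.13 ± 0.30 after 24 h (adjusted p = 0.00405, 2.18-fold lower) and -0.87 ± 0.28 after 72 h (adjusted p = 0.0148). At 72 h the groups overlapped, since WT clone 2 had 3.01 and 2.01 CPM and clone 27 had 6.13 and 4.87 CPM. Without the series 27-2 the solvent and 72 h calls were lost (adjusted p = 0.0715 and 0.0629), and the sums of the replications of a clone gave no NRG1 call in solvent, at 6 h or at 72 h (adjusted p = 0.126, 0.0545 and 0.0646). No TGFβ1 change of NRG1 was called in either genotype, with log2 fold changes between -0.38 and 0.05.

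The receptors moved little. EGFR had 240, 213, 188 and 242 CPM in WT solvent and 258, 266, 291 and 301 CPM in mut solvent, which did not overlap, with a log2 difference of 0.34 ± 0.13 (adjusted p = 0.0783, 0.0485 with DESeq2). At 24 h of TGFβ1 there were 261, 266, 201 and 233 CPM in WT and 334, 313, 285 and 393 CPM in mut cells, and this difference of 0.46 ± 0.13 was called (adjusted p = 0.00573, 1.38-fold higher in mut cells). At 72 h the difference was 0.27 ± 0.13 (adjusted p = 0.097), and it was 0.45 (adjusted p = 0.0021) without the mut library 65-2, which had 199 CPM while the other 3 mut libraries had 292 to 371 CPM. No TGFβ1 change of EGFR was called in limma-voom, with values from 0.05 to 0.27, whereas DESeq2 called it in WT cells at each time (0.35, 0.30 and 0.29, adjusted p = 0.0445, 0.0394 and 0.048) and in mut cells at 24 h (0.34, adjusted p = 0.0387). EGFR overlaps the antisense gene EGFR-AS1, and the kit keeps no strand.

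ERBB2 lay between 103 and 158 CPM in all libraries. Its TGFβ1 changes were -0.16 to 0.10 and its genotype differences 0.10 to 0.20, the largest at 6 h (adjusted p = 0.0527), and none was called in the main test. The replicate block called the mut change at 72 h (-0.16, adjusted p = 0.024). ERBB2 overlaps PGAP3 and MIEN1 on the opposite strand. ERBB3 had 7.67 to 20.6 CPM, and no change or difference of it was called in any alternative. In WT cells its first-replication libraries were above those of the second replication at each state, and in mut cells clone 1 was above clone 65 at each state.

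**Figure D2:**
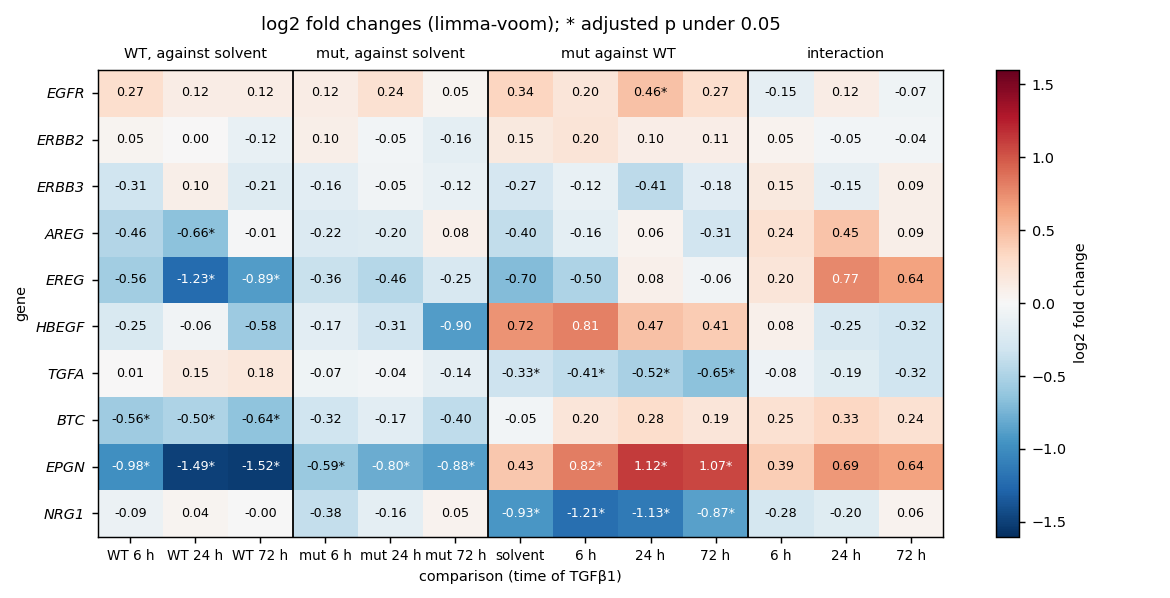
Log2 fold changes from limma-voom for the 10 genes (rows) in the 13 comparisons (columns), blue for lower and red for higher; an asterisk marks an adjusted p under 0.05. The asterisks lie in ligand rows except for EGFR at 24 h of mut against WT, and there are none among the interactions.

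Over the genotype comparisons, 2, 3, 4 and 3 of the 10 genes were called in solvent and at 6, 24 and 72 h, beside 12.7%, 21.4%, 36.9% and 39.2% of all tested genes. Of these genes 6.38%, 11.3%, 24.7% and 26% were higher and 6.32%, 10%, 12.2% and 13.2% lower in mut cells. The libraries of the genotypes did not overlap for 3, 3, 4 and 2 of the 10 genes, beside 17.7%, 21.3%, 35.9% and 33.9% of all tested genes. TGFA and NRG1 were lower in mut cells in each of the 4 states, EPGN was higher in the 3 treated states, and EGFR was higher at 24 h. The solvent calls of TGFA and NRG1 and the 72 h call of NRG1 were lost when any of several single libraries was left out. In the interactions limma-voom called 0 of the 10 genes at each time, beside 0.074%, 9.65% and 12.3% of all tested genes. At an unadjusted p under 0.05 there were 0, 1 and 2 genes, edgeR's quasi-likelihood test also called 0 and DESeq2 called 1, TGFA at 72 h. The replicate block called 5 of the 30 interaction values, all higher in mut cells, namely EPGN and EREG at 24 and 72 h and AREG at 24 h. That blocked fit called 18.7% of all tested genes at 24 h and 23.5% at 72 h, so that the 2 genes at 72 h were no larger a share than over all genes. The 3 genes at 24 h were a larger share, but this rests on few genes and was not tested.

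The summed level of the 6 EGFR ligand genes per kilobase of exon shows how the mixture shifted. In WT cells it was 538 ± 83.0 CPM per kb without TGFβ1, and 371 ± 60.9, 320 ± 43.9 and 448 ± 44.2 CPM per kb after 6, 24 and 72 h. In mut cells it was 476 ± 31.6, 382 ± 33.4, 369 ± 15.2 and 416 ± 61.9 CPM per kb. EPGN made up 21.1% of the WT sum in solvent and 8.66% at 72 h, while AREG went from 70.0% to 82.8%. In mut cells EPGN made up 30.6% in solvent and 19.3% at 72 h, and AREG 59.5% and 72.2%. The sum was not tested, and AREG and EPGN together account for most of it, so that it carries little about the other 4 ligands.

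Around the family, 36 genes of the pathway, chosen with earlier results of these data known, were followed as a list, of which 34 were tested. In WT cells the calls were 6 up and 2 down at 6 h, 9 up and 8 down at 24 h, and 7 up and 7 down at 72 h. Of all tested genes, 5.13%, 14.1% and 13.9% were called higher and 11.9%, 38% and 38.4% lower at these times. In mut cells the calls were 0 up and 3 down, 5 up and 3 down, and 7 up and 5 down. There 2.06%, 6.75% and 7.81% of all tested genes were called higher and 4.94%, 17.1% and 16.3% lower. With TMM factors the splits over the 3 times moved from 22 higher and 17 lower to 35 higher and 11 lower in WT cells and from 12 and 11 to 17 and 7 in mut cells. The interaction calls, 2 higher and 5 lower, became 1 higher and 6 lower. Of all tested genes, 0.074%, 9.65% and 12.3% were called in the interaction at 6, 24 and 72 h in the main fit. Between genotypes 5 were higher and 5 lower in mut solvent cells, 6 and 9 at 6 h, 6 and 10 at 24 h, and 8 and 10 at 72 h, which is 29.4%, 44.1%, 47.1% and 52.9% of the list, beside 12.7%, 21.4%, 36.9% and 39.2% of all tested genes. With TMM factors 4 were higher and 13 lower at 24 h, and 7 and 13 at 72 h. Of the genes of the list given below with values, NRG4, TIMP3, LRIG1, PLCG1 and MAP2K1 overlap another gene of the table on the opposite strand. SHC1 overlaps PYGO2 on the same strand and another gene on the opposite strand. CBL, USP8 and RASA1, named below as not called, also overlap a gene on the opposite strand. The medians of the list in WT cells were -0.05, -0.02 and -0.09 at the 3 times.

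Among the other ligands, NRG2, a neuregulin that binds ERBB3 and ERBB4, went from 4.63 ± 1.23 CPM in solvent to 1.11 ± 0.16 CPM at 72 h in WT cells (-2.02 ± 0.36, adjusted p = 3.48e-05) and from 5.61 ± 0.943 to 0.684 ± 0.215 CPM in mut cells (-3.08 ± 0.42, adjusted p = 2.92e-06). NRG4, a ligand of ERBB4, was also lower at 72 h in WT (-0.96 ± 0.22, adjusted p = 0.000669) and mut cells (-0.70 ± 0.16, adjusted p = 0.00175), and was 1.82-fold higher in mut than in WT solvent cells (0.87 ± 0.17, adjusted p = 0.000749).

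Among the genes of shedding, RHBDF1, which encodes iRhom1, a carrier of the sheddase ADAM17, rose from 10.5 ± 1.41 to 27.1 ± 2.68 CPM at 24 h in WT and from 11.8 ± 1.16 to 18.4 ± 1.24 CPM in mut cells. The interaction was -0.74 ± 0.17 at 24 h (adjusted p = 0.00594) and -0.50 ± 0.17 at 72 h (adjusted p = 0.047). TIMP3, an inhibitor of ADAM17, had 185 ± 8.43 CPM in solvent and 324 ± 45.4 CPM after 72 h in mut cells, against 216 ± 28.1 and 246 ± 26.2 CPM in WT cells, with an interaction of 0.61 ± 0.15 (adjusted p = 0.00793). FRMD8, which stabilizes the iRhom and ADAM17 complex, fell from 63.6 ± 10.0 to 45.7 ± 2.49 CPM at 72 h in WT cells and had 60.5 ± 6.12 and 58.8 ± 5.55 CPM in mut cells, with an interaction of 0.42 ± 0.14 (adjusted p = 0.045) that was not called with TMM factors (0.34, adjusted p = 0.111).

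**Figure D3:**
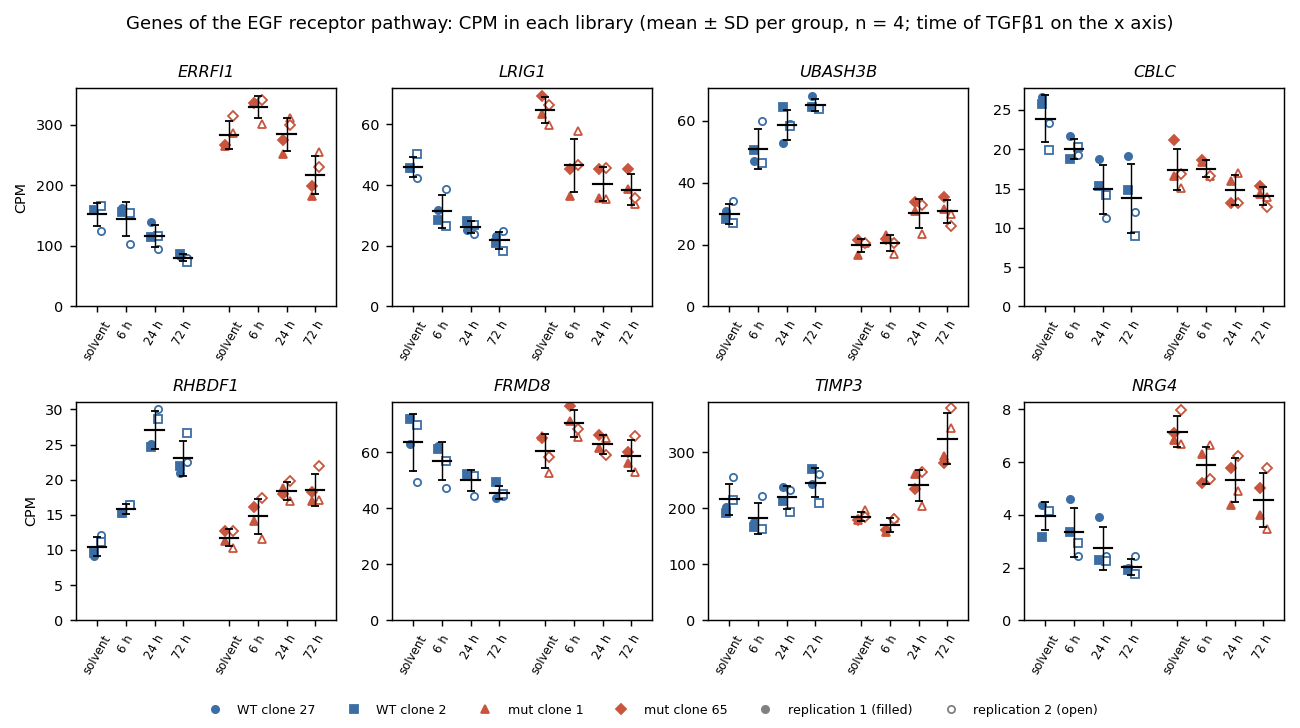
CPM in each of the 32 libraries for 8 pathway genes, with the time of TGFβ1 on the x axis, WT in blue and mut in red, clones by marker shape and replications as filled or open markers, and bars for the mean ± SD (n = 4). ERRFI1 and LRIG1 lie higher and UBASH3B lies lower in mut than in WT cells in solvent and at 72 h.

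Of the 9 genes of inhibition and turnover, 3 were higher and 2 lower in mut than in WT solvent cells, and CBL, CBLB, USP8 and RASA1 were not called, beside 12.7% of all tested genes called. ERRFI1 encodes MIG6, which binds the EGFR kinase and blocks it. It had 159, 159, 125 and 166 CPM in WT solvent and 265, 267, 287 and 315 CPM in mut solvent (0.90 ± 0.12, adjusted p = 7.01e-06), and 83.4, 86.9, 79.4 and 73.4 CPM in WT and 183, 199, 255 and 231 CPM in mut cells at 72 h (1.42 ± 0.13, 2.67-fold higher in mut cells, adjusted p = 1.59e-09). It fell after 72 h of TGFβ1 in WT (-0.91 ± 0.13, adjusted p = 9.04e-07) and mut cells (-0.39 ± 0.12, adjusted p = 0.0183, but 0.0572 with TMM factors), and the interaction was 0.51 ± 0.18 (adjusted p = 0.0514, 0.00277 with the replicate block).

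LRIG1, which favours degradation of the receptors, was also higher in mut cells, with 64.7 ± 4.15 CPM in mut and 46.0 ± 3.23 CPM in WT solvent libraries (0.49 ± 0.11, adjusted p = 0.00395), and with 38.4 ± 5.08 against 21.8 ± 2.85 CPM at 72 h (0.81 ± 0.13, adjusted p = 2.04e-05). UBASH3B, a phosphatase that limits turnover of activated receptors, was lower in mut solvent cells (19.7 ± 2.10 against 30.0 ± 3.22 CPM, -0.61 ± 0.12, adjusted p = 0.000938) and rose at 72 h to 65.2 ± 1.99 CPM in WT and to 30.7 ± 3.80 CPM in mut cells, with an interaction of -0.49 ± 0.16 (adjusted p = 0.0423). CBLC, a ubiquitin ligase, was lower (-0.46 ± 0.15, adjusted p = 0.0327) and RNF41, a ubiquitin ligase of ERBB3, higher in mut solvent cells (0.43 ± 0.13, adjusted p = 0.0321), and both calls were lost with clone as a random replicate block (adjusted p = 0.0581 and 0.0615).

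Of the adaptors and transducers, the exchange factor SOS2 rose at 72 h in WT cells (0.52 ± 0.09, adjusted p = 3.24e-05) and was not called in mut cells (0.11 ± 0.09, adjusted p = 0.402), with an interaction of -0.43 ± 0.13 at 24 h and -0.41 ± 0.13 at 72 h (adjusted p = 0.0363 and 0.0383). PLCG1 rose at 72 h in both genotypes (0.46 ± 0.09 in WT and 0.28 ± 0.10 in mut cells). In solvent, SHC1 was higher in mut cells (0.26 ± 0.08), and GRB2 (-0.18 ± 0.04), GAB1 (-0.31 ± 0.10) and MAP2K1 (-0.22 ± 0.06) were lower. The lower ones were lower by 1.13- to 1.24-fold.

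The likeness of other transcripts to each member was described by Pearson's r of log2(CPM + 0.1) over the 32 libraries, among 9502 protein-coding genes with a mean of at least 10 CPM. The libraries share groups and clones, so that r carries those differences too. EPGN was most like TACC2 (r = 0.967) and IFI16 (r = 0.963). HBEGF was most like SESN2 (r = 0.918) and SLC7A1 (r = 0.899), and TGFA most like IL1B (r = 0.912) and SLFN5 (r = 0.907). EGFR was most like CHD9 (r = 0.876) and SLC30A1 (r = 0.855), ERBB2 most like WDTC1 (r = 0.880) and PLXNB1 (r = 0.853), and BTC most like CPNE8 (r = 0.816) and ZNF12 (r = 0.792). For NRG1 the most alike gene was another member, TGFA (r = 0.855), followed by PPP4R1 (r = 0.827). AREG with ARHGAP29 (r = 0.788) and PLAGL1 (r = 0.768), EREG with MTHFD2L (r = 0.786) and TRMT6 (r = 0.781), and ERBB3 with STAP2 (r = 0.699) and PLD1 (r = 0.695) had the lowest values. Within the family, AREG and EREG had r = 0.679, BTC and EPGN 0.689, and TGFA and EPGN -0.551. Between receptor and ligand genes, ERBB2 had r = -0.664 with AREG and 0.565 with EPGN.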

How the data were processed

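RNA-seq was performed on 32 MCF10A libraries. Raw read counts, as deposited, were made by the authors with STAR on GRCh38 (Ensembl) after trimming with Trimmomatic, from an unstranded kit. Tool versions and the strand setting are not given in the sources used here. Here, genes passing filterByExpr (minimum count 10, minimum total 15; 14865 genes) were fitted with voom and limma 3.58.1 in R 4.3.3, with library-size scaling and 1 term for each of the 8 groups over all libraries, as in the study's methods, and Benjamini-Hochberg adjustment over all genes. CPM used the library totals (39702412 to 54651906 counts). Exon lengths came from GENCODE 44. edgeR 4.0.16, DESeq2 1.42.0, TMM factors, other filters, replicate blocks and the removal of libraries were alternatives. The main fit was run on simulated counts, drawn independently for each library, with genes changed only in WT cells at 72 h. That simulation held no correlation within a series or clone, so it cannot check how such correlation affects the tests or the genotype comparisons. Pathway genes were named when called in the interaction at 24 or 72 h or in mut against WT solvent, plus at most 2 per subgroup with the largest WT change at 72 h, and 2 genes most like each member. The members and lists were chosen with earlier results of these data known. Libraries of a series come from the same clone, as the labels give it, and their deviations from the group means correlated (r over 0.1 in 46 of 48 pairs, mean 0.495). Labels name replications, not cultures, so p-values measure only the spread between these libraries. No library was taken for a duplicate, since even the most alike pair within a group had a chi-square of 11.6 per degree of freedom.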

Additional observations from a re-analysis of the deposited data

Results flagged for a closer look

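Within groups of 4 libraries, 2 of 80 tested groups held a library far from the other 3 by Dixon's ratio, while chance alone gives about 1 in 20. AREG had 423 CPM in the mut solvent library 65-1, where the other 3 had 474 to 481 CPM. EREG had 30.5 CPM in the WT 72 h library 27-1, where the other 3 had 55.1 to 59.2 CPM.

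In limma-voom the interaction was called for RHBDF1 at 24 h (-0.74) and 72 h (-0.50) and for SOS2 at 24 h (-0.43) and 72 h (-0.41). It was also called at 72 h for UBASH3B (-0.49), FRMD8 (0.42) and TIMP3 (0.61), all on the log2 scale. These were 7 of 102 tests of the pathway list. Of all tested genes, 0.074%, 9.65% and 12.3% were called in the interaction at 6, 24 and 72 h. The FRMD8 call was lost with TMM factors. The count of such pathway calls was 7 with all libraries, 3 without the series 1-2, 2 with clone sums, 9 without the series 27-2 and between 2 and 10 when single libraries were left out. TGFA at 72 h moved up in all 4 WT series and down in all 4 mut series, with a mean difference of -0.33 on the log2 scale. Some of these series hardly moved, with 0.0036 in the WT series 27-2 and -0.024 and -0.029 in the mut series 65-1 and 1-2. This opposite movement of the series was not tested in itself, and the interaction of TGFA at 72 h had an adjusted p of 0.151.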

How the results depend on the processing

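Of 3130 values of the 10 genes under alternatives, 2994 stayed on their side of the threshold, 69 lost a call, 67 gained a call and 0 called values turned direction. Among them, 138 uncalled values changed sign. In the main fit 25 of 150 values were called, the comparisons of 72 h with 24 h included. Most values that stayed on their side were therefore uncalled ones. The main counts were 9 (WT), 3 (mut), 12 (mut against WT) and 0 (interaction) family calls, and 39, 23, 59 and 7 pathway calls. Requiring a log2 fold change of at least 1 in size left 3, 0, 4 and 0 family and 7, 3, 6 and 0 pathway calls, by its own construction. With the series in the fit as a replicate block (the paired analysis), 8 family calls in mut cells, 5 family interactions and 14 pathway interactions were found, and 12 family calls in WT cells, and the block changed no family call other than those named with their values. Family interactions numbered 1 with the groups of the comparison only, 2 with clone sums, 1 with DESeq2 and 2 without the series 27-2, and pathway interactions 2 with clone sums and 3 without the series 1-2. Their causes were not tested. Leaving out single libraries gave 7 to 10, 2 to 5, 10 to 13 and 0 to 2 family calls and 35 to 41, 18 to 24, 54 to 60 and 2 to 10 pathway calls. Extremes came without mut solvent 65-1 (5 mut family calls), WT solvent 27-2 (2 family and 10 pathway interactions) and WT solvent 27-1 (2 pathway interactions). WT family calls were 7 without the series 27-2 and 13 with DESeq2. With clone as a random replicate block the genotype calls were 11, and with the replication number as block 15. Depth limits BTC and NRG1, at as few as 134 and 42 counts in a library, and of the pathway list NRG2 and NRG4, at as few as 17 and 76.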
